A study of Mus musculus with 6 samples.

Results

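Amino acid catabolism in the liver was followed through 41 genes, whose rows were found by Ensembl identifier through their mouse symbols. They encode enzymes of histidine, serine, phenylalanine and tyrosine, tryptophan, glycine, methionine, cysteine, branched-chain, proline and lysine breakdown, with 3 transaminases. All 41 were found among the 55802 rows of the count table, and all 41 passed the filter on low counts that left 15579 genes to test. The samples were livers of wild-type (WT) C57BL/6 mice: 3 libraries from mice given oil (controls) and 3 from mice given CCl4, carbon tetrachloride, a solvent that hepatocytes turn into a reactive radical and that is used to injure the rodent liver. The series presents this as a model of liver fibrosis. The labels give no age, sex, dose, route or duration and do not say whether each library is a separate animal, so every p-value rests on the scatter of 6 libraries, some of which may be technical.

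The liver is the main site where most amino acids are dismantled. Each carbon skeleton is carried by its own chain of enzymes, mostly in hepatocytes, toward the citric acid cycle, glucose, ketone bodies, one-carbon units, NAD or taurine, while the nitrogen is passed to glutamate or released as ammonia for the urea cycle. The methionine cycle also supplies S-adenosylmethionine, the methyl donor of the cell, and transsulfuration turns its product homocysteine into cysteine. Branched-chain amino acids are an exception in that their amino group is mostly removed outside the liver, and the liver oxidises the resulting keto acids.

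In the CCl4 livers, 26 of the 41 genes were lower and 2, Uroc1 and Mat1a, were higher, at an adjusted p under 0.05 in edgeR's quasi-likelihood test (called, in what follows). Over all genes tested, 20.1% were called lower and 21.2% higher. The falls were modest: the median log2 fold change (CCl4 over control) of the 41 genes was -0.27, against 0.00056 over all genes tested, and the estimates ran from -0.81 for Prodh to 0.51 for Sds. Only Prodh and Tdo2 were called with a change of at least 0.58 on the log2 scale. The calls took in every gene of the histidine, tyrosine, tryptophan, proline and lysine groups, and 8 of 9 of the branched-chain and propionate group. The 2 serine and 3 glycine genes were not called by edgeR, although 4 of these 5 (Sds, Sdsl, Gldc and Shmt1) had an unadjusted p under 0.05 and DESeq2 called Sds. Of 6 genes of the methionine cycle and transsulfuration 1 rose and 1 fell. In bulk tissue, fewer cells of a type and less RNA per cell cannot be told apart.

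**Figure D1:**
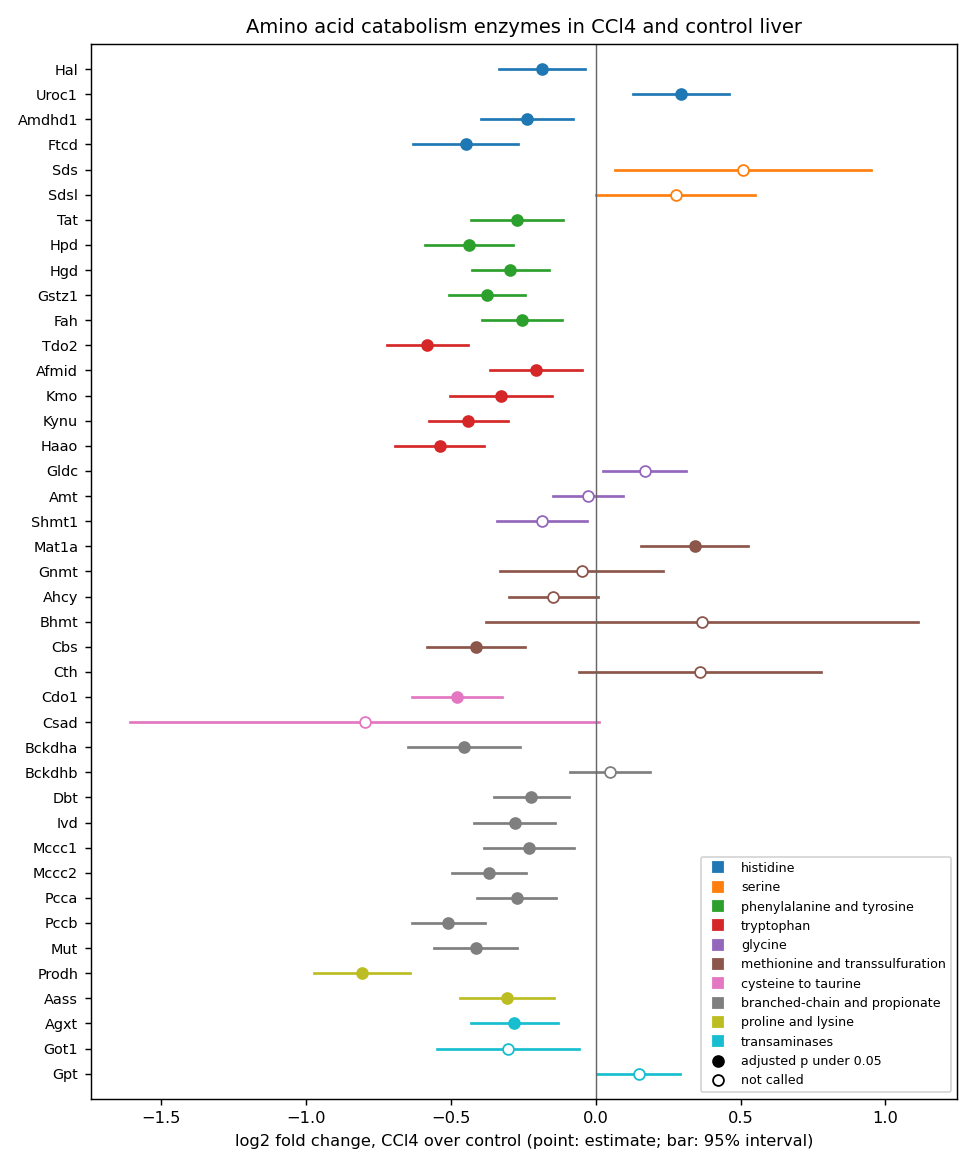
Log2 fold change (CCl4 over control, x axis) of each of the 41 genes (y axis), coloured by pathway. Points are edgeR estimates, bars their 95% intervals, filled points passed an adjusted p of 0.05. Filled points lie left of 0 except those of Uroc1 and Mat1a, and the widest bars are those of Csad, Bhmt, Sds and Cth.

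For 29 of the 41 genes all 3 CCl4 libraries lay below all 3 controls in CPM (counts per 1000000, on the scaled library size), and for 5 (Uroc1, Gldc, Mat1a, Cth and Gpt) all 3 lay above. The same was true of 26.4% and 27.6% of all genes tested. The median deviation of the 41 genes from their control mean was -0.28, -0.26 and -0.26 on the log2 scale in CCl4 replicates 1, 2 and 3. By this median the 3 CCl4 libraries were close together, but by the summed level of the 41 genes they were not. The sum was 18809.6, 18857 and 21955 CPM in CCl4 replicates 1, 2 and 3. Controls ran from 21475 to 22169.9, so that replicate 3 lay among them. The sum weighs abundant genes most, and Bhmt alone stood at 2099, 2327 and 4138 CPM in CCl4 replicates 1, 2 and 3. In replicate 3, 31 of the 41 genes lay below their control mean (log2), against 33 in each of replicates 1 and 2. In controls 1, 2 and 3 the number was 22, 29 and 7.

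The split of calls depended on how libraries were scaled. With upper quartile scaling 20 of the 41 were lower and 6 higher (all genes: 14.0% and 26.3%), and with library size alone 13 were lower and 7 higher (all genes: 10.8% and 31.0%). Library size alone moved the median of all genes from 0.00056 to 0.15 (log2). The median of the 41 lay 0.27 below that of all genes under each of these scalings and under the main one. With libraries scaled to 15 plasma protein genes of hepatocytes, so that a change is relative to those transcripts, 26 were lower and 3, Uroc1, Mat1a and Sds, higher (all genes: 20.7% and 18.8%). When a change of more than 1.5-fold was required, Prodh alone of the 41 was called (all genes: 2.44% and 8.40%).

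**Figure D2:**
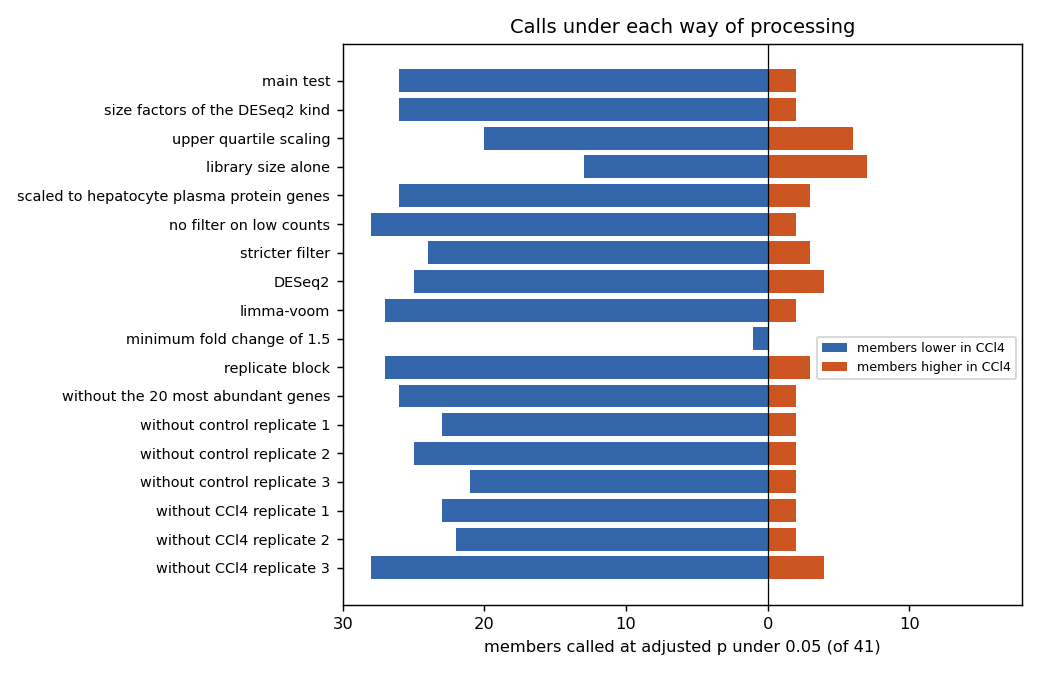
Number of the 41 genes called lower (bars to the left) and higher (bars to the right) in the CCl4 livers, for the main test and each alternative (y axis). The bars to the left are the longer ones throughout, shrink to 13 with library size alone and to 1 when a 1.5-fold change was required.

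The promoters of 3 genes that fell are shown so that the sequence searched below can be seen. Each stretch is the 250 bases before the annotated start in RefSeq (build GRCm38.p6), 5′ to 3′ on the gene's strand. Of genes with a window searched below, these are the called ones of smallest adjusted p whose listed start is the gene's outermost end. Capitals mark CpG dinucleotides. Tdo2 (chr3:81975729-81975978, minus strand) has 3, Mccc2 (chr13:100015640-100015889, minus strand) 18 and Hpd (chr5:123182724-123182973, minus strand) 7.
Tdo2: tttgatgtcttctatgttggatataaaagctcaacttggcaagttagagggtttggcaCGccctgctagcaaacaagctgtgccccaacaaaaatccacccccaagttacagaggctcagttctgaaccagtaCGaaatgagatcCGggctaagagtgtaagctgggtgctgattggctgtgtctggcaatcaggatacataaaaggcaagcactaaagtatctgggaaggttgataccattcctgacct
Mccc2: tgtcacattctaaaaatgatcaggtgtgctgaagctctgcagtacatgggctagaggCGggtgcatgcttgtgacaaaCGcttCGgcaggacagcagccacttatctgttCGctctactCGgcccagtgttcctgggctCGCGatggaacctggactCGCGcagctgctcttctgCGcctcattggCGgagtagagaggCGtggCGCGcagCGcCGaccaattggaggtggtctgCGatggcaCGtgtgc
Hpd: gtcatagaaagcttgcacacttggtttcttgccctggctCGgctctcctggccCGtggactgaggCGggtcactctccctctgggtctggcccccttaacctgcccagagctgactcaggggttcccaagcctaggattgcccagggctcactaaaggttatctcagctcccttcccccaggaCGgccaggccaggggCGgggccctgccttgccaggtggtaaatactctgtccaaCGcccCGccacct

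RefSeq windows of 1 chromosome were left out before the search. Among the windows kept were those of 32 of the 41 genes, 36 windows in all. CpG counts ran from 0, upstream of Uroc1, to 21, upstream of Cbs, with a median of 6.5 against 6 over the 32851 windows kept. Letters of binding sites for some liver regulators were searched on both strands. AAAGTCCA (HNF4A) was found in 1 of the 36 windows, that of Hgd (2.78%, against 1.01% of all windows). TTGCNNAA (C/EBP) was in 3, those of Hal, Hgd and Aass (8.33%, against 9.56%), and TGTTCT (glucocorticoid receptor) in 4, those of Haao, Bckdhb, Pccb and Agxt (11.1%, against 16.1%). TGTTTAC (FOXA) and TGACGTCA (CREB) were in none of the 36, and in 3.17% and 1.55% of all windows. These are matches of letters, not binding sites.

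Histidine is broken down in sequence by Hal (histidine ammonia-lyase), Uroc1 (urocanase), Amdhd1 (imidazolonepropionase) and Ftcd (formiminotransferase cyclodeaminase, which passes a one-carbon unit to folate). All 4 genes were called, 3 lower and Uroc1 higher. Ftcd (ENSMUSG00000001155) stood at 533, 473 and 554 CPM in controls 1, 2 and 3 and at 382, 410.5 and 352 in CCl4 replicates 1, 2 and 3. The groups did not overlap, and the level in CCl4 livers was 73.3% of control (95% interval 64.6 to 83.1, log2 fold change -0.45, SE 0.08, adjusted p = 0.00188). Uroc1 (ENSMUSG00000034456) stood at 460.0, 410.3 and 491 CPM in controls and 575, 553 and 542 in CCl4 livers. Each CCl4 library was above each control (log2 fold change 0.30, SE 0.07, adjusted p = 0.0106), and the call held in every alternative but that of a 1.5-fold minimum.

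Hal (ENSMUSG00000020017), the entry step, changed least of the 4. It stood at 571, 565 and 593 CPM in controls and 545, 483 and 493 in CCl4 livers (-0.18, SE 0.07, adjusted p = 0.0475). Hal lost this call when any single library but CCl4 replicate 1 was dropped (adjusted p 0.0715 to 0.176), with upper quartile scaling (0.254), with library size alone (0.647) and with the stricter filter (0.0594). Amdhd1 fell by 0.24 on the log2 scale (adjusted p = 0.024), which missed the threshold when control 1 (0.0712), control 3 (0.0818) or CCl4 replicate 2 (0.0757) was dropped. Amdhd1 was also not called with upper quartile scaling (0.108) or library size alone (0.281).

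Tyrosine, formed from phenylalanine, is degraded by Tat (tyrosine aminotransferase), Hpd (hydroxyphenylpyruvate dioxygenase), Hgd (homogentisate dioxygenase), Gstz1 (maleylacetoacetate isomerase) and Fah (fumarylacetoacetate hydrolase). All 5 were called lower, with log2 fold changes from -0.44 to -0.25. Hpd (ENSMUSG00000029445) stood at 1594, 1520.0 and 1611 CPM in controls and 1164, 1091 and 1233 in CCl4 livers. The groups were well apart, at 73.8% of control (95% interval 66.4 to 82.0, log2 fold change -0.44, SE 0.07, adjusted p = 0.000806). Gstz1 fell by 0.38, Hgd by 0.29, Tat by 0.27 and Fah by 0.25 on the log2 scale, and none of the 5 genes had overlapping groups. Tat was not called without control replicate 3 (adjusted p = 0.0506), with upper quartile scaling (0.0505) or with library size alone (0.158). Hgd (0.0963) and Fah (0.183) were not called with library size alone. The exons of Gstz1 overlap 465 bases of Pomt2 on the opposite strand, and the strand setting of the counting is not given. Pomt2 stood at 26.7 and 20.5 CPM in the 2 groups, far below Gstz1 (678 and 522).

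The kynurenine pathway carries tryptophan toward NAD. It begins with Tdo2 (tryptophan dioxygenase), which sets its pace in the liver, and goes on through Afmid (kynurenine formamidase), Kmo (kynurenine monooxygenase), Kynu (kynureninase) and Haao (hydroxyanthranilate dioxygenase). All 5 were called lower, with a median log2 fold change of -0.44. Tdo2 (ENSMUSG00000028011) stood at 1696, 1628 and 1762 CPM in controls and 1143, 1154 and 1101 in CCl4 livers. No CCl4 library came near the lowest control, and the level was 66.8% of control (95% interval 60.7 to 73.6, log2 fold change -0.58, SE 0.06, adjusted p = 0.000108). Tdo2 also had the highest level per kilobase of the pathway in controls, 672 CPM per kb against 427 for Haao.

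Haao (ENSMUSG00000000673) stood at 459, 432 and 490.4 CPM in controls and 300.1, 329.8 and 321 in CCl4 livers, again without overlap (68.8% of control, log2 fold change -0.54, SE 0.07, adjusted p = 0.000274). Kynu fell by 0.44 and Kmo by 0.33 on the log2 scale. Afmid, the least abundant gene of the pathway at 39.96 ± 3.13 CPM (mean ± SD over 3 controls) against 34.6 ± 1.54 after CCl4, fell by 0.21 (adjusted p = 0.0426). That call was kept without control replicate 2 but lost without any other single library (adjusted p 0.0535 to 0.133). Afmid was also not called with the replicate block (0.0619), in DESeq2 (0.122), with the stricter filter (0.0532), with upper quartile scaling (0.191) or with library size alone (0.53). Of its 3539 exonic bases, 1566 are shared with Gm20708 on the same strand, which had a count of 0 in every library. Afmid shares 83 exonic bases with Tk1 on the opposite strand, which was itself called higher (0.31, adjusted p = 0.0478).

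**Figure D3:**
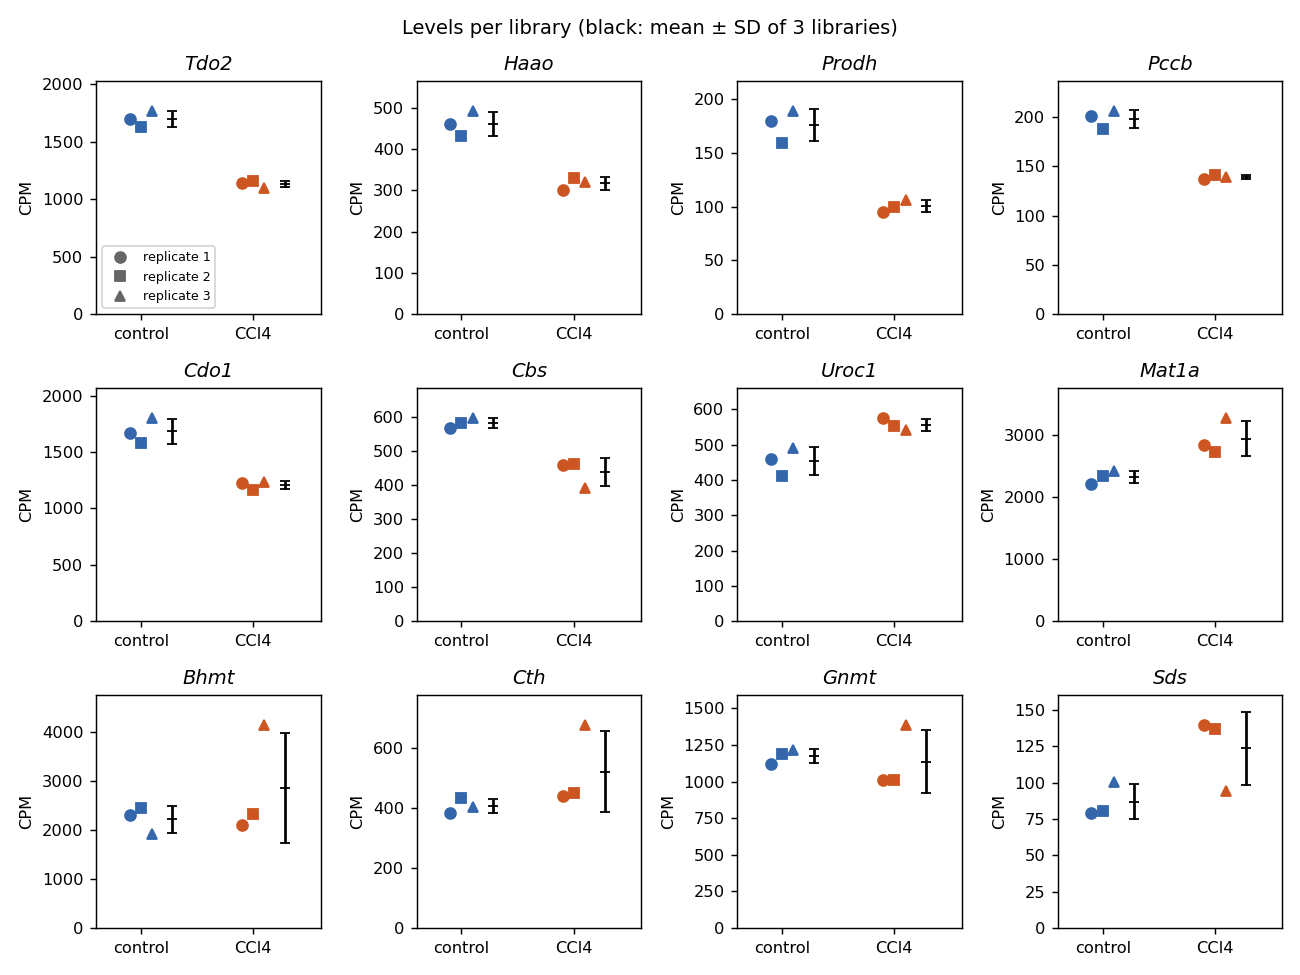
CPM (y axis, from 0) of 12 genes in each control (blue) and CCl4 (orange) library, with the replicate number as the symbol and mean ± SD in black. Tdo2, Haao, Prodh, Pccb, Cdo1 and Cbs are lower in each CCl4 library, and Bhmt, Cth and Gnmt are highest in CCl4 replicate 3.

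Branched-chain keto acids enter oxidation through the branched-chain dehydrogenase complex, whose subunits are encoded by Bckdha, Bckdhb and Dbt. Beyond it, Ivd (isovaleryl-CoA dehydrogenase) and the 2 subunits of methylcrotonyl-CoA carboxylase, Mccc1 and Mccc2, act on the leucine branch. Propionyl-CoA from valine, isoleucine, methionine and threonine is taken up by propionyl-CoA carboxylase (Pcca, Pccb) and methylmalonyl-CoA mutase (Mut). Of these 9 genes 8 were called lower, and the exception was Bckdhb. Pccb (ENSMUSG00000032527) stood at 200.4, 188 and 205 CPM in controls and 137, 141 and 139 in CCl4 livers. The CCl4 libraries were within a few CPM of one another and all below the controls (70.3% of control, 95% interval 64.4 to 76.8, log2 fold change -0.51, SE 0.06, adjusted p = 0.000132).

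Within the dehydrogenase complex the subunits differed. Bckdha (ENSMUSG00000060376) stood at 52.4, 57.98 and 62.4 CPM in controls and 39.3, 40.01 and 46.8 in CCl4 livers (-0.45, SE 0.09, adjusted p = 0.00252). Its partner Bckdhb (ENSMUSG00000032263) stood at 65.5, 72.2 and 69.0 CPM and at 71.2, 67.6 and 75.2, with overlapping groups (0.05, 95% interval -0.09 to 0.19, adjusted p = 0.548). Bckdhb was called higher with library size alone (0.20, adjusted p = 0.0387). Of Bckdha's 1899 annotated exonic bases, 1171 overlap B3gnt8 on the opposite strand, which stood at 4.05 and 4.28 CPM.

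The other called genes of this group fell by 0.41 (Mut), 0.37 (Mccc2), 0.28 (Ivd), 0.27 (Pcca), 0.23 (Mccc1) and 0.22 (Dbt) on the log2 scale, each without overlap of the groups. Dbt lost its call without CCl4 replicate 1 (adjusted p = 0.0527), with upper quartile scaling (0.0829) and with library size alone (0.392). Mccc1 lost its call when control 1 (0.0818), control 3 (0.0706), CCl4 replicate 1 (0.0714) or CCl4 replicate 2 (0.0948) was dropped. It was also not called with upper quartile scaling (0.121), with library size alone (0.406) or in DESeq2 (0.0565).

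Prodh (ENSMUSG00000003526), proline dehydrogenase, which opens proline breakdown in mitochondria, fell most of the called genes. It stood at 179, 159 and 188 CPM in controls and 95.4, 100.01 and 106 in CCl4 livers. The highest CCl4 library was well below the lowest control, at 57.2% of control overall (95% interval 51.0 to 64.2, log2 fold change -0.81, SE 0.07, adjusted p = 4.67e-05). It was also the only one of the 41 called against a 1.5-fold minimum (adjusted p = 0.0188). Aass (ENSMUSG00000029695), the bifunctional enzyme that starts lysine breakdown, stood at 339, 303 and 362 CPM in controls and 277, 269 and 266 in CCl4 livers. The groups did not overlap (-0.31, SE 0.07, adjusted p = 0.00749).

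The methionine cycle and transsulfuration did not move as a block. Mat1a (ENSMUSG00000037798), the liver form of methionine adenosyltransferase, makes S-adenosylmethionine. It stood at 2216, 2330.0 and 2418 CPM in controls and 2836, 2720 and 3268 in CCl4 livers, each CCl4 library above each control (126.7% of control, log2 fold change 0.34, SE 0.08, adjusted p = 0.00826). Cbs (ENSMUSG00000024039), cystathionine beta-synthase, commits homocysteine to transsulfuration. It stood at 567, 581 and 595 CPM in controls and 459, 461 and 390.0 in CCl4 livers, without overlap (75.2% of control, log2 fold change -0.41, SE 0.08, adjusted p = 0.002).

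The remaining 4 genes of this group were not called, and in 3 of them CCl4 replicate 3 lay apart. Gnmt (ENSMUSG00000002769), glycine N-methyltransferase, consumes surplus S-adenosylmethionine. It stood at 1121, 1186 and 1219 CPM in controls and 1010.4, 1012 and 1386 in CCl4 livers, so that 2 CCl4 libraries were below the controls and the third above them (-0.05, 95% interval -0.33 to 0.23, adjusted p = 0.779). Without CCl4 replicate 3 it was called lower (-0.22, adjusted p = 0.0176), and its estimate was above 0 with upper quartile scaling (0.04), with library size alone (0.10) and without CCl4 replicate 1 (0.03) or 2 (0.03). Bhmt (ENSMUSG00000074768), betaine-homocysteine methyltransferase, returns homocysteine to methionine. It stood at 2295, 2437 and 1911 CPM in controls and 2099, 2327 and 4138 in CCl4 livers.

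The Bhmt groups overlapped, with replicate 3 far above the other 5 libraries (0.37, 95% interval -0.38 to 1.11, adjusted p = 0.375, and -0.001 without CCl4 replicate 3). An antisense gene, Gm15622, shares 187 exonic bases with Bhmt and stood at 1.49 and 8.68 CPM (2.55, adjusted p = 0.0232). Cth (ENSMUSG00000028179), cystathionine gamma-lyase, which releases cysteine, stood at 384, 433 and 402 CPM in controls and 439, 449 and 677 in CCl4 livers. Its groups did not overlap, but only replicate 3 stood clear of the controls (0.36, 95% interval -0.06 to 0.78, adjusted p = 0.147, and adjusted p = 0.0426 in DESeq2). Ahcy, which splits S-adenosylhomocysteine, stood at 1120 ± 53.9 and 1012 ± 54.1 CPM (-0.15, adjusted p = 0.115). It was called lower without CCl4 replicate 3 (-0.19, adjusted p = 0.0451), and was 0.0014 with library size alone.

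Cdo1 (ENSMUSG00000033022), cysteine dioxygenase, which opens the route from cysteine to taurine, stood at 1670.1, 1579 and 1801 CPM in controls and 1223, 1164 and 1235 in CCl4 livers. All CCl4 libraries were below all controls (71.7% of control, 95% interval 64.4 to 79.9, log2 fold change -0.48, SE 0.07, adjusted p = 0.000564). Csad (ENSMUSG00000023044), cysteine sulfinate decarboxylase, the next step of that route, had the largest standard error of the 41 genes. It stood at 287, 526 and 334 CPM in controls and 173, 205 and 283 in CCl4 livers. The groups only just separated, and the change was not called (-0.80, SE 0.31, 95% interval -1.61 to 0.01, adjusted p = 0.105).

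**Figure D4:**
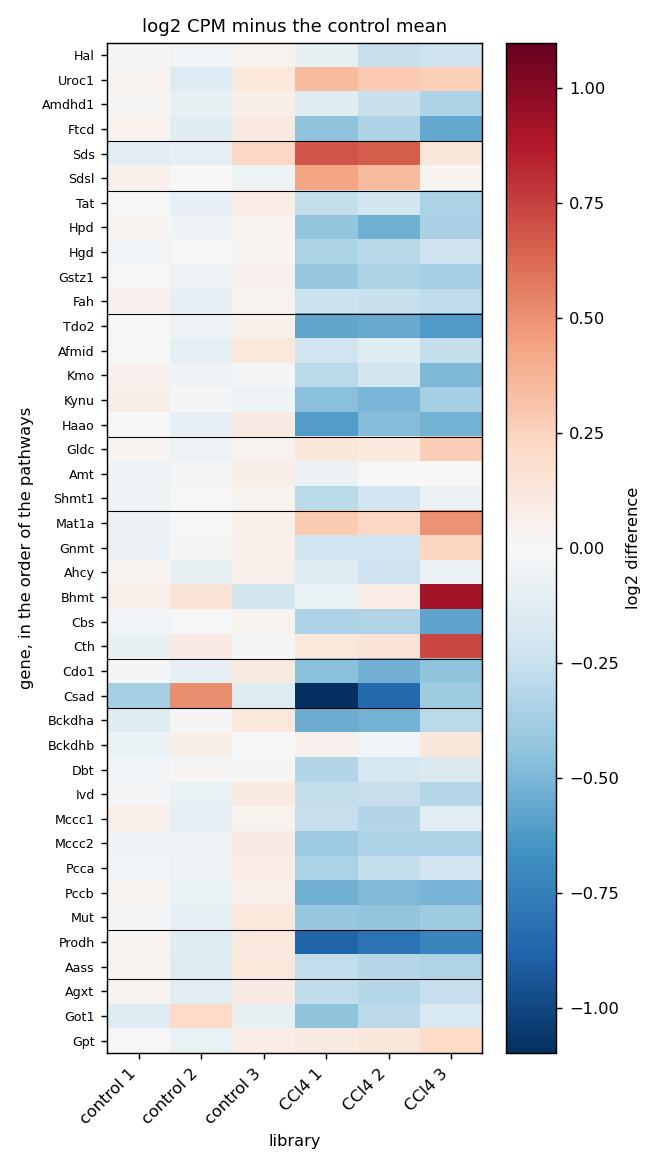
Log2 CPM minus the mean of the 3 controls, for the 41 genes (rows, by pathway, lines between pathways) in the 6 libraries (columns). Blue rows run through all 3 CCl4 columns for most pathways, while in CCl4 replicate 3 Bhmt, Cth and Gnmt are redder, and Cbs and Kmo bluer, than in replicates 1 and 2.

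CCl4 replicate 3 departed most from the mean of replicates 1 and 2 in Bhmt (0.90 on the log2 scale, against 0.15 between replicates 1 and 2), Cth (0.61, against 0.03), Csad (0.59, against 0.25) and Gnmt (0.45, against 0.003). It departed downward in Sds (-0.55, against 0.03) and Sdsl (-0.37, against 0.08). Over the whole table, the second principal component (8.68% of the variance) also set this library apart, and Mki67, a marker of dividing cells, stood at 66.0, 65.7 and 32.4 CPM in CCl4 replicates 1, 2 and 3. Whether the 2 are linked was not tested. Without CCl4 replicate 3, 28 of the 41 genes were lower and 4 higher, and 24 of the 26 main falls were among the 28.

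Sds (ENSMUSG00000029597), serine dehydratase, turns serine into pyruvate for gluconeogenesis, and Sdsl encodes a related protein. Sds stood at 79.2, 80.7 and 101 CPM in controls and 140, 137 and 94.4 in CCl4 livers. Replicates 1 and 2 were above the controls and replicate 3 among them, so the groups overlapped and Sds was not called (0.51, 95% interval 0.07 to 0.95, adjusted p = 0.0677). Without CCl4 replicate 3 Sds was called higher (0.67, adjusted p = 0.00113), as it was in DESeq2 (0.51, adjusted p = 0.00336), with upper quartile scaling (0.0387), with library size alone (0.0187) and when scaled to plasma protein genes (0.0447). On the opposite strand, 360 of its 1694 exonic bases overlap Plbd2 (64.9 and 68.9 CPM in the 2 groups, log2 fold change 0.09) and 141 overlap Gm15690 (4.14 and 7.59 CPM, 0.87, adjusted p = 0.0352). Sdsl (ENSMUSG00000029596), the gene with the lowest level per kilobase of the 41, stood at 9.21, 8.92 and 8.53 CPM in controls and 11.996, 11.3 and 8.99 in CCl4 livers. It too was not called (0.28, adjusted p = 0.0983) but was called without CCl4 replicate 3 (0.39, adjusted p = 0.0126), with upper quartile scaling (0.041) and with library size alone (0.0169).

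The glycine genes had the group median nearest to 0 (-0.03). Gldc, the decarboxylase of the glycine cleavage system, stood at 213 ± 7.16 and 239.5 ± 15.5 CPM (0.17, adjusted p = 0.061), and was called higher with upper quartile scaling (0.26), library size alone (0.32), the stricter filter (0.18) and the replicate block (0.17). Amt, the aminomethyltransferase of the same system, stood at 68.0 ± 2.94 and 66.8 ± 1.42 CPM (-0.03, 95% interval -0.15 to 0.10, adjusted p = 0.733). Its estimate was above 0 with upper quartile scaling (0.06), library size alone (0.12) and without control replicate 3 (0.004). Shmt1 (ENSMUSG00000020534), the cytosolic serine hydroxymethyltransferase, stood at 190.4, 198 and 203 CPM in controls and 161, 170.0 and 188.5 in CCl4 livers. All CCl4 libraries were lower, but the change missed the threshold (-0.19, adjusted p = 0.0549). Shmt1 was called lower without CCl4 replicate 3 (-0.25, adjusted p = 0.00653), with no filter on low counts (0.0204), in limma-voom (0.0494) and with the replicate block (0.0319).

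Transaminases move amino groups between amino acids and keto acids. Agxt (ENSMUSG00000026272), which detoxifies glyoxylate in peroxisomes with alanine as the donor, stood at 319, 288 and 334 CPM in controls and 259, 253 and 263 in CCl4 livers, without overlap (-0.28, SE 0.07, adjusted p = 0.00793). Got1, cytosolic aspartate aminotransferase, stood at 188 ± 26.0 and 152 ± 14.3 CPM (-0.30, adjusted p = 0.0509), and was called lower without control replicate 1 (adjusted p = 0.0381) or CCl4 replicate 3 (0.0356), in DESeq2 (0.0287), with no filter on low counts (0.0348) and with the replicate block (0.021). Gpt, cytosolic alanine aminotransferase, stood at 221 ± 11.6 and 245 ± 11.0 CPM (0.15, adjusted p = 0.0886), with each CCl4 library above the controls. Gpt was called higher with upper quartile scaling (0.23) and library size alone (0.30).

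Levels between genes were set side by side per kilobase of transcript. In controls, Gnmt (1136 CPM per kb), Hpd (1122), Cdo1 (1100) and Bhmt (889) were the most abundant of the 41. In CCl4 livers, Bhmt (1146), Gnmt (1098) and Mat1a (881) came before Hpd (828) and Cdo1 (789), and the place of Bhmt rested on CCl4 replicate 3. At the low end, Sdsl, Afmid, Mccc1 and Bckdha held the last 4 places in both groups, from 6.58 to 30.3 CPM per kb in controls. The first 3 of the control order differed by less than their spread between libraries.

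A ratio of 2 genes within a library does not depend on library scaling, so 10 pairs of partner enzymes were compared that way (pairs chosen with the values above known). With 3 libraries against 3 the exact permutation test, two-sided, cannot give a p below 0.1, and 8 pairs reached it (0.125 after Benjamini-Hochberg adjustment over the 10). Of all single genes tested, 54.0% had groups that did not overlap. The share for other gene pairs was not computed, so the 8 pairs are given as description only. The log2 ratio of Uroc1 to Hal, the consecutive steps of histidine breakdown, went from -0.35 ± 0.10 to 0.14 ± 0.06 (mean ± SD, n = 3, exact p = 0.1). That of Bckdha to Bckdhb went from -0.26 ± 0.10 to -0.77 ± 0.09. In both pairs the shift was several times the spread within a group.

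For Mat1a to Ahcy the log2 ratio went from 1.05 ± 0.09 to 1.54 ± 0.07. For Pccb to Pcca, the subunits of 1 carboxylase, it went from 1.18 ± 0.04 to 0.95 ± 0.06, so Pccb fell more than its partner in these libraries. The ratio of Cth to Cbs, the consecutive steps of transsulfuration, stood at -0.56, -0.42 and -0.56 in controls and -0.06, -0.04 and 0.80 in CCl4 livers, and that of Cbs to Bhmt, the competing routes for homocysteine, at -2.02, -2.07 and -1.68 and at -2.19, -2.33 and -3.41. In these pairs, too, the groups did not overlap and CCl4 replicate 3 lay farthest out. The ratios of Mccc2 to Mccc1 (difference -0.14, exact p = 0.2) and of Sds to Sdsl (0.23, exact p = 0.3) overlapped between the groups.

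**Figure D5:**
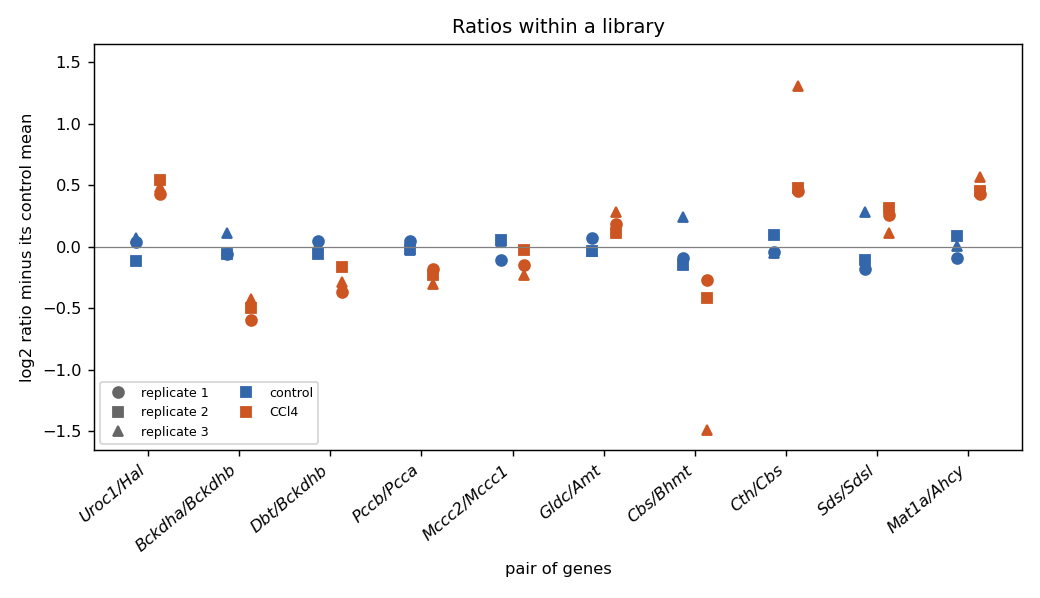
Log2 ratio of 10 gene pairs in each library, minus the mean of the 3 controls (y axis), for controls (blue) and CCl4 (orange), with replicate number as the symbol. The groups separate for 8 pairs, and CCl4 replicate 3 (triangle) lies farthest from 0 for Cbs/Bhmt and Cth/Cbs.

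Other enzymes of amino acid breakdown that are not among the 41 gave a similar picture. Of 58 such genes 57 were tested (Tdh was at 0 in every library), and 28 fell while 3 rose (median -0.23). Over all genes tested, 20.1% were called lower and 21.2% higher. With upper quartile scaling 21 were lower and 5 higher (all genes: 14.0% and 26.3%). With library size alone 19 were lower and 9 higher (all genes: 10.8% and 31.0%). By far the largest fall was that of Oat, ornithine aminotransferase, an enzyme of pericentral hepatocytes. It stood at 978, 1100.4 and 1135 CPM in controls and 34.2, 47.8 and 52.0 in CCl4 livers (-4.58, SE 0.17, adjusted p = 4.22e-06). Next came Ppm1k, the phosphatase that activates the branched-chain dehydrogenase (-0.79, adjusted p = 0.00817), Dhtkd1, of lysine breakdown (-0.62), Aspg, an asparaginase (-0.61), and Suox, sulfite oxidase (-0.55).

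The 3 that rose were Nnmt (0.83, adjusted p = 0.0209), which methylates nicotinamide with S-adenosylmethionine, Gpt2 (0.50, adjusted p = 0.000337), the mitochondrial alanine aminotransferase, and Asrgl1 (0.41, adjusted p = 0.0259), an asparaginase-like enzyme. Asrgl1 was no longer called when control 1 (adjusted p = 0.091), control 2 (0.0884) or CCl4 replicate 3 (0.0635) was dropped. That of Nnmt was lost without CCl4 replicate 2 (0.0622), and, like that of Ppm1k (0.0549), with no filter on low counts (0.0822 for Nnmt).

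Genes of amino acid synthesis went mostly the other way. Of 12, 11 were tested, and 7 rose while 2 fell (median 0.83), against 21.2% higher and 20.1% lower over all genes tested. Psat1, of serine synthesis, rose from 1.39 ± 0.363 to 5.33 ± 1.18 CPM (1.94), and Aldh18a1, of proline synthesis, from 1.85 ± 0.418 to 6.44 ± 0.944 (1.79). Phgdh (1.26), Psph (0.80) and Mthfd2 (0.80) were also among those that rose. Those that fell were Glul, glutamine synthetase of pericentral hepatocytes (-3.57), and Shmt2 (-0.30). The genes named as rising stood at low levels beside the catabolic enzymes.

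Of 19 regulators linked to hepatocyte metabolism, 11 were lower and the other 8 were not called. The number lower was 15 with the replicate block, 7 with library size alone and 1 with the 1.5-fold minimum. It was 8 to 12 with a library dropped, the fewest without CCl4 replicate 2. Over all genes, 20.1% were lower in the main test, 10.8% with library size alone and 2.44% with the 1.5-fold minimum. Ppara, a receptor for fatty acids, fell by 1.27 on the log2 scale, the glucagon receptor Gcgr by 0.54, the insulin receptor Insr by 0.54, Crebl2 by 0.49, Creb3l3 by 0.48 and Klf15, a factor known to drive amino acid breakdown, by 0.40. The glucocorticoid receptor Nr3c1 fell by 0.39, Cebpa by 0.32, Foxa1 by 0.76 and Atf4 by 0.23. With upper quartile scaling, Cebpa (adjusted p = 0.0593) and Atf4 (0.115) were not called. With library size alone, Cebpa (0.194), Foxa1 (0.0533) and Atf4 (0.415) were not called, and Foxa1 was not called with no filter (0.121). Dropping a library ended the call of Cebpa for control 3, CCl4 1 and CCl4 2 (adjusted p 0.0573 to 0.0677), of Foxa1 for control 1 and each CCl4 library (0.0608 to 0.0845), and of Atf4 for control 1, control 3, CCl4 1 and CCl4 2 (0.0634 to 0.0914). Hnf4a was not called at -0.19 (adjusted p = 0.0517), nor were Cebpb (-0.76), Ppargc1a (-0.38), Prox1 (-0.29), Foxa2 (-0.06), Nr1h4 (-0.04), Onecut1 (0.18) and Tfeb (0.26). Cebpb, Ppargc1a and Prox1 were called lower with the replicate block (adjusted p 0.0336, 0.0148 and 0.0297). Cebpb was also called with no filter (0.0403) and without CCl4 replicate 3 (0.02), Ppargc1a without control 2 (0.0451) or CCl4 replicate 3 (0.0289), and Prox1 without control 3 (0.00739). Hnf4a was called lower without CCl4 replicate 1 (-0.23, adjusted p = 0.0414), scaled to plasma protein genes (0.0224), with no filter (0.0197), in limma-voom (0.0427) and with the replicate block (0.0372). With upper quartile scaling or library size alone, Tfeb was called higher (0.34 and 0.41) and the estimates of Foxa2 and Nr1h4 were above 0.

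Markers of some cell types in the samples changed while those of others hardly did, and their part in these results was not tested. The libraries were hepatocyte-rich: Alb stood at 71800.2 ± 3609 and 73971 ± 1664 CPM (0.04, adjusted p = 0.655, called higher at 0.19 with library size alone) and Apoa1 at 6163 ± 457 and 4774 ± 949 (-0.37, adjusted p = 0.0775). Over all genes tested, 21.2% were called higher and 20.1% lower. Of 15 matched genes of hepatocyte plasma proteins 5 were higher and 3 lower. Their sum ran from 115770 to 122195 CPM in controls and 118658 to 124082 in CCl4 livers. Of 11 periportal genes 1 was higher and 4 lower (sums 15834 to 16612, then 14327 to 14591), and of 11 pericentral genes 9 were lower (12243 to 13152, then 3615 to 4981). Among genes of other cells, 9 of 10 of macrophages (258 to 321, then 704 to 796), 8 of 9 of stellate cells and fibroblasts (261 to 322, then 1083 to 1169) and 8 of 8 of the cell cycle (12.7 to 18.1, then 109 to 227) were higher. Col1a1 stood at 11.6 ± 4.56 and 165 ± 17.4 CPM and Ctss at 31.9 ± 2.71 and 128 ± 8.85. Of 6 cholangiocyte genes, 5 of them tested, 4 were higher (50.4 to 94.0, then 252 to 335). Of 7 lymphocyte genes, 6 of them tested, 2 were higher (23.1 to 27.2, then 41.2 to 48.7). Of 7 endothelial genes 1 was lower (231 to 248, then 212 to 240). Counts this small do not set the lymphocyte and endothelial lists apart from all genes. No marker of these lists was at 0 in every library. Of 8 markers of pancreas, adipose tissue and kidney none passed the filter (summed level 0.919 to 13.9 in controls, then 0.202 to 0.442 CPM).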

How the data were processed

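The libraries measured messenger RNA in liver. Per the labels' protocols, RNA came from an RNeasy kit and libraries from a SMARTER mRNA kit. Per the series' design text, reads with adapters, low base quality or undetermined bases were removed and the rest aligned with HISAT2. The submitters' processing notes name HISAT2 and featureCounts. Genome build, annotation, versions, strand setting and multi-mapping rule are each not given in the sources used here. Exons of 10 of the 41 genes overlap another annotated gene.

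The authors deposited whole-number gene counts, 18929972 to 20042731 per library. Rows without an Ensembl ID (unannotated genes, by their names) hold 0.543 to 0.679% of these and were kept. Symbols came from GENCODE M21 (52083 of 55359 identifiers matched, and Tf of the plasma protein list did not). Replicates of a group correlated at 0.985 to 0.993 in log CPM and their counts differed beyond sampling noise (5.19 to 23.0, chi-square per gene). At this depth the 3 libraries per group, not counting error, limit precision.

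Counts were kept with filterByExpr, scaled by TMM and tested with glmQLFit and glmQLFTest (robust) in edgeR 4.0.16 (R 4.3.3), with Benjamini-Hochberg adjustment over all 15579 genes. The SE is the log2 fold change over the square root of F. Levels per kb use the median length of protein-coding transcripts in GENCODE M21. Ratio tests used scipy 1.17.1. Alternatives were other scalings and filters, DESeq2 1.42.0, limma-voom (limma 3.58.1), a 1.5-fold minimum (glmTreat), leaving out the 20 most abundant genes, a replicate block, and dropping each library. The test was checked on simulated data.

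The members and gene lists were chosen with earlier results of these data known. All 41 members are named. Values per library are given for called members with a log2 change of at least 0.58, and, in each pathway, for the member of smallest adjusted p and of highest level per kb. Hal, Uroc1, Haao, Bckdha, Bckdhb, Mat1a, Bhmt, Cth, Csad and Sdsl were shown as well after their values were seen. Of the 58 other catabolic genes, the 5 largest called rises and falls with at least 10 CPM are named (only 3 rises qualified), with the regulators and Alb, Apoa1, Col1a1, Ctss and Mki67. Synthesis genes and genes overlapping members were added. A few genes of these lists are counted but not reported here by name, and 1 motif searched is not reported here.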

Additional observations from a re-analysis of the deposited data

How the results depend on the processing

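Of 28 called genes of the 41, 22 kept their call whichever single library was left out, and 15 kept it in every alternative but the 1.5-fold minimum. Genes of the 41 called higher numbered 2 in the main test, 6 with upper quartile scaling, 7 with library size alone, 4 in DESeq2, 0 with the 1.5-fold minimum, and 2 to 4 with a library left out. Those called lower numbered 26, 13 with library size alone, 1 with the 1.5-fold minimum, and 21 to 28 with a library left out. The falls lost with library size alone were Hal, Amdhd1, Tat, Hgd, Fah, Afmid, Kmo, Dbt, Ivd, Mccc1, Pcca, Aass and Agxt. Over all genes, 3303 were higher and 3124 lower. The 1.5-fold minimum gave 1309 and 380, and library size alone 1676 lower. Other catabolic genes called higher went from 3 to 5 (upper quartile), 9 (library size alone) and 0 (1.5-fold minimum), and those called lower from 28 to 1 (1.5-fold minimum).

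Estimates were recomputed for the 41 genes, the regulators and some genes of the other lists, and those of 8 genes, none called in the main test, changed sign. With upper quartile scaling these were Amt (0.061), Gnmt (0.038), Got2 (0.037), Foxa2 (0.024) and Nr1h4 (0.047), and with library size alone Amt (0.12), Gnmt (0.10), Ahcy (0.0014), Got2 (0.099), Foxa2 (0.087) and Nr1h4 (0.11). With a library left out, estimates ran from -0.056 to 0.0040 for Amt, -0.22 to 0.032 for Gnmt, -0.0010 to 0.55 for Bhmt, -0.25 to 0.12 for Foxa2, -0.61 to 0.51 for Onecut1 and -0.11 to 0.029 for Nr1h4. In limma-voom Onecut1 was at -0.015. The cause was not tested.

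Same-numbered libraries of the groups deviated together only weakly (correlations 0.048, 0.004 and 0.063), and control replicate 2 correlated best with CCl4 replicate 1, so the numbers were not taken as pairs. With the replicate block, 3 of the 41 were higher and 27 lower. With at least 18929972 counts per library, depth limits mainly the genes of low level, such as Sdsl.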
